A study of Mus musculus with 4 samples.

Results

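The genes described here are 9 members of the insulin-like growth factor (IGF) system: the ligands Igf1 and Igf2, the receptors Igf1r and Igf2r, and the binding proteins Igfbp2, Igfbp3, Igfbp4, Igfbp5 and Igfbp7. They were taken by name from the 31053 genes that each of 4 single-cell matrices lists. No rule on their values was used, but earlier results of these data were known when they were chosen. The measurements were made on subcutaneous tumors of MycCaP, a mouse prostate cancer line derived from a Myc transgenic prostate tumor, and subcutaneous adipose tissue (SAT). For each tissue there was 1 library from animals given the vehicle PBS (the labels call them Control) and 1 from animals given D-CAN, a peptide that targets adipose stromal cells (ASC). All libraries carry the strain label VFB. The study's methods describe mice on chow. Ages and the number of mice behind a library are not given in the sources used here. The tumors are grafts of a single cultured line, and the SAT suspension holds stromal and vascular cells, with the 4 adipocyte markers summing to 0 to 94.5 CPM (UMIs per 1000000 UMIs of the cells summed) in each class.

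IGF1 and IGF2 are secreted growth factors that act through the receptor tyrosine kinase IGF1R, whereas IGF2R takes up IGF2 and carries it to lysosomes for degradation. Secreted IGF binding proteins hold the ligands in the extracellular space and either withhold them from the receptor or deliver them to it, and proteases that cleave the binding proteins release the ligand. In adipose tissue the system is known for its part in the growth and differentiation of preadipocytes, and in prostate cancer IGF1R is a known growth factor receptor of the epithelial cells. IGFBP7 binds IGFs weakly and is known as a protein of vessel basement membranes.

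Cells were put into 5 classes by marker genes. A cell with at least 200 genes entered a class when it held UMIs (unique molecular identifiers, each standing for 1 captured RNA molecule) of at least 3 different markers of that class and at least 2 more than of any other class. This gave 6806 of 8986 kept cells a class (75.7%), 1268 of them exactly at the limit, while 207 cells held markers of several classes and 1973 had no class. The cancer class held 944 control and 450 D-CAN tumor cells. The fibroblast class held 96, 65, 205 and 66 cells, the mural class (pericytes and smooth muscle) 57, 27, 44 and 39, the endothelial class 91, 60, 446 and 161 and the leukocyte class 559, 378, 1623 and 1494, in the order tumor control, tumor D-CAN, SAT control, SAT D-CAN, which is kept below. The summed UMIs of the libraries ranged from 6667064 to 17996284 and the median UMIs per kept cell from 1700 to 4855, and 7 cell barcodes occurred in more than 1 library. In the cancer class Cldn3 was seen in 97.6 and 98.4% of cells and Krt8 in 82.2 and 83.6%, but Epcam and Krt18 were at 0 or 1 UMI and Cdh1, which encodes E-cadherin, in at most 0.444% of cells, so the class rests on Cldn3, Spint2, Krt8 and Psca and lacks defining epithelial adhesion markers. Dcn was seen in 85.4 to 100% of fibroblasts, Cdh5 in 70.2 to 96.7% of endothelial cells and Rgs5 in 59.0% or more of mural cells.

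Each level below is the sum of a gene's UMIs over the cells of a class in 1 library, per 1000000 UMIs of that sum (CPM), and its 95% Poisson interval covers counting error only. Comparisons between classes used edgeR on the 18 sums of classes with at least 20 cells, with the 2 libraries of a tissue as its replicates and the library as a block, and p-values were adjusted over 9554 genes. The spread was fitted over both tissues together, so a difference in the tumor was also judged against the spread in SAT, and the reverse. The highest class was chosen from the fitted values and then set against the next one, so these p-values are on the small side. Tumor against SAT was compared as a ratio within each treatment, and D-CAN against control as a ratio within each tissue, with 1 library on each side and no test. A ratio is called there when it passes 2-fold with at least 20 UMIs, for tumor against SAT in the same direction under both treatments. SAT had no cancer class (1 cell in control and 0 in D-CAN).

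In the tumor, 4 of the 8 members measured (Igf1, Igfbp2, Igfbp3 and Igfbp4) were higher in 1 class than in the next, where 31.4% of all 9554 genes passed the same test. In SAT, 3 of 7 did (Igf1, Igfbp3 and Igfbp4, against 36% of all genes). Igfbp2 had enough UMIs to be tested only through its tumor fibroblast sums, with at most 1 UMI in any other sum. Its call there is thus no separate support for a fibroblast source. Fibroblasts led for Igf1 and Igfbp4 in both tissues and for Igfbp2 in the tumor, where they led for 3.57% of all genes, against 7.52% in SAT. The lead for Igfbp3 was in endothelial cells in the tumor, as for 4.75% of all genes, and in fibroblasts in SAT. No member was called with cancer, mural or leukocyte cells highest in the tumor (13.8, 1.24 and 8.01% of all genes) or with endothelial, mural or leukocyte cells highest in SAT (6.59, 3.85 and 18%). A class difference that itself differed between the tissues was found for 4 of 7 members (Igf1, Igfbp3, Igfbp4 and Igfbp5; 33% of all genes in at least 1 of the 6 class pairs). Igfbp2, with no UMI in SAT, was left out of both counts of 7 members, whereas the shares of all 9554 genes kept such genes, so the 2 are not fully alike. These counts were not tested against the shares of all genes, and the members are described by their own values.

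**Figure D1:**
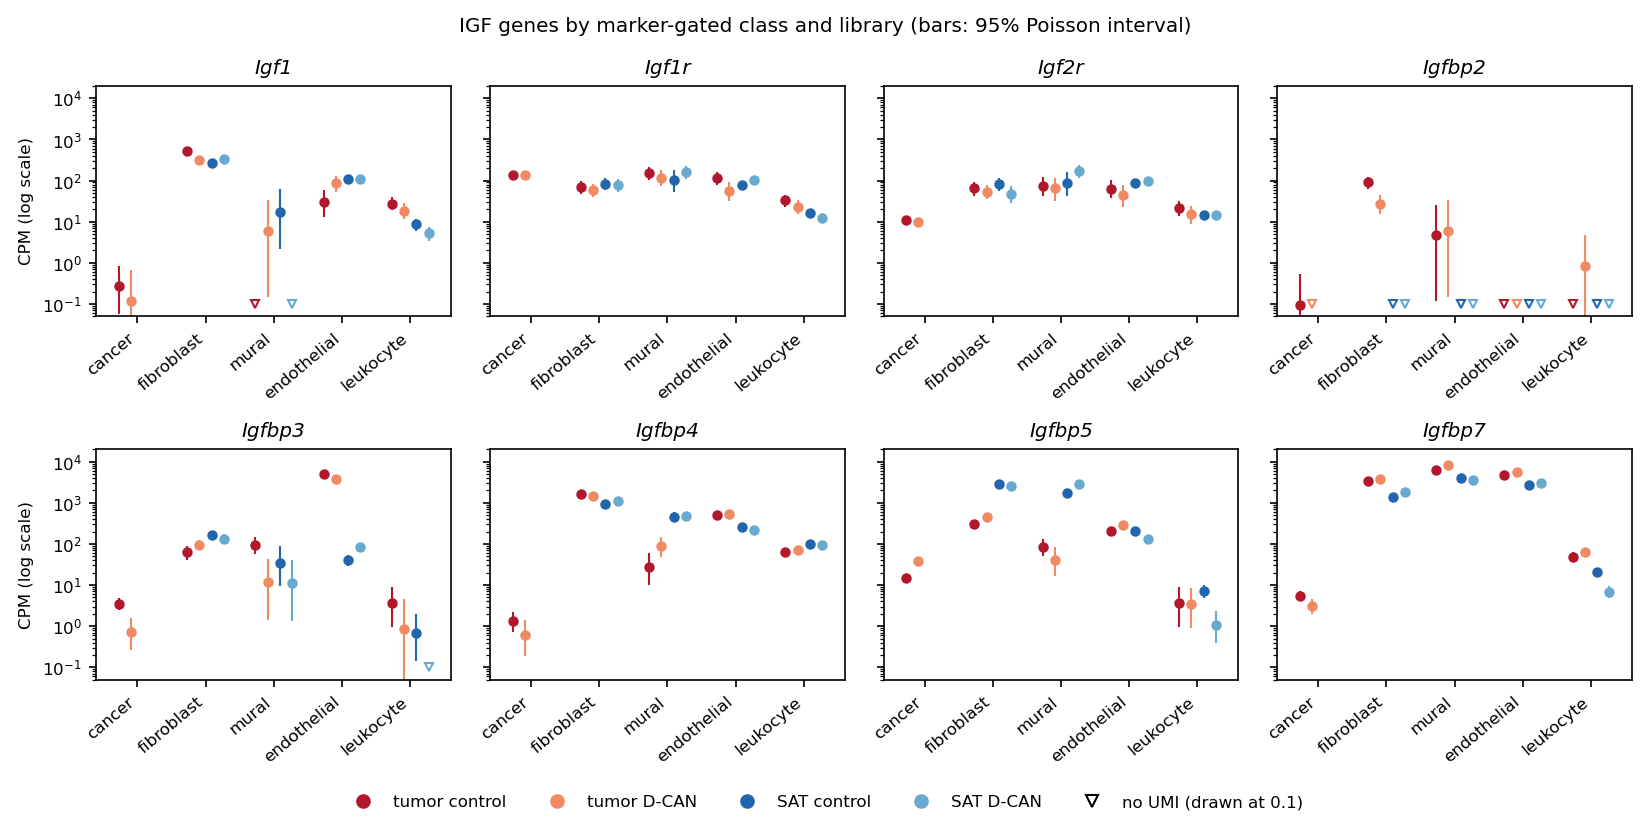
CPM (log axis) of 8 IGF genes in the marker-gated classes, 1 point per library with its 95% Poisson interval, and open triangles at 0.1 for sums with no UMI. Igfbp3 stood at 5074 and 3852 CPM in tumor endothelium and at 40.3 and 86.5 in SAT endothelium, and Igfbp5 at 305 and 458 CPM in tumor fibroblasts and at 2858 and 2509 in SAT fibroblasts.

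Igf1 (chromosome 10, 87858265-87937042, plus strand, GRCm38), the ligand of Igf1r, had its highest class level in fibroblasts in both tissues. Fibroblasts held 534 (interval 467 to 607), 311 (266 to 361), 268 (221 to 322) and 338 (283 to 401) CPM, and no other class of any library came above 111 CPM. Endothelial cells held 30.0, 85.6, 111 and 111 CPM, leukocytes 27.7, 18.6, 8.60 and 5.21 CPM, mural sums 0, 1, 2 and 0 UMIs and cancer cells 3 and 1 UMIs. The fibroblast lead over endothelium was 3.03 ± 0.32 (SE) on the log2 scale in the tumor (edgeR adjusted p = 9.3e-08, 2 libraries) and 1.59 ± 0.22 in SAT (edgeR adjusted p = 3.7e-06). Endothelium exceeded leukocytes by 3.47 in SAT (edgeR adjusted p = 1.4e-10, higher in 28.4% of all genes) and by 1.01 in the tumor (edgeR adjusted p = 0.124), and the difference between these, tumor minus SAT, was -2.45 (edgeR adjusted p = 0.00196, lower in 10.3% and higher in 8.27% of all genes). It rested on the tumor control library, without which it was -1.59 (edgeR adjusted p = 0.172).

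The captured Igf1 RNA was thus shared out differently in the tissues. Fibroblasts held 79.4 and 66.5% of all Igf1 UMIs of the tumor libraries and 37.3 and 48.0% of those of SAT, and endothelial cells held 2.75 and 8.85% against 41.9 and 40.1%. The libraries held 291, 260, 308 and 279 Igf1 UMIs. These shares follow the numbers of cells recovered in each class as well as the levels, since SAT gave 446 and 161 endothelial cells and the tumor 91 and 60.

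Within the classes, the Igf1 level differed between marker subsets, each defined by at least 2 of its own markers. In SAT endothelium the venous subset held 468 and 338 CPM, with a UMI in 36 of 53 and 17 of 21 cells, while the capillary subset held 30.5 and 33.0 CPM, with a UMI in 17 of 259 and 6 of 113 cells, and the arterial subset no UMI in 20 and 9 cells. For this and the other subset comparisons, here and below, the share of all genes that differ in the same way was not computed. In the tumor only 4 and 7 endothelial cells were venous, at 96.8 CPM (1 UMI) and 339 CPM (10 UMIs). Among SAT fibroblasts, cells with committed stromal markers held 772 and 580 CPM and those with progenitor markers such as Pi16 and Dpp4 held 63.7 and 202. In tumor fibroblasts the order was the other way, with 687 and 500 CPM in progenitor-marked cells (19 and 13 cells) and 445 and 280 in committed-marked cells (17 and 20 cells). The summed committed markers were at 592 and 909 CPM in SAT fibroblasts, 7085 and 8012 in SAT mural cells and 31925 in SAT control endothelium. The part of vascular RNA in the committed-marked values, here and below, was not tested. The 6 progenitor markers summed to 643 and 627 CPM in tumor fibroblasts, 299 and 360 in cancer cells and 349 and 339 in tumor endothelium. In SAT fibroblasts they stood at 4239 and 3859 CPM. Any 2 of them sufficed, so a tumor cell so marked need not hold Pi16 or Dpp4. The part of other cells' RNA in these labels was not tested. Fibroblasts of neither subset held 516, 255, 448 and 164 CPM, and in tumor control they held 146 of the 231 Igf1 UMIs of the class. Endothelial cells of no subset held 31.1, 103, 49.3 and 222 CPM. A single cell held 26 of the 60 Igf1 UMIs of the SAT control committed cells.

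In leukocytes as a whole Igf1 was higher in the tumor than in SAT, by 3.22-fold (1.94 to 5.31) in control and 3.57-fold (1.95 to 6.43) in D-CAN, a rise shown by 17.8% of all genes in this class. The makeup of the class differed: the summed macrophage markers stood at 14820 and 12646 CPM in tumor leukocytes and at 435 and 210 in SAT leukocytes, all 8 being seen in each library, and 669 and 637 B cells and 610 and 663 T or NK cells made up most of the SAT class. Within macrophages the direction was the opposite. SAT macrophages held 183 and 173 CPM of Igf1 (33 and 27 UMIs in 45 and 26 cells) and tumor macrophages 31.3 and 22.0 CPM (30 and 22 UMIs in 465 and 307 cells), so that the SAT level was 5.86-fold (3.46 to 9.95) and 7.88-fold (4.32 to 14.5) the tumor level. B cells held 0 to 1.89 CPM and T or NK cells 0 to 0.974. The summed fibroblast markers in these macrophages were at 98.1, 62.1, 100.1 and 38.5 CPM, and 10 of the 33 and 10 of the 27 SAT UMIs lay in 1 cell each.

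Igf2 (chromosome 7, 142650766-142666816, minus strand), the fetal growth ligand, had no UMI in any class sum of any library and 1 UMI in all, in an unclassified SAT control cell. The annotation sets a limit here: the predicted gene Gm49394 shares 62.8% of the exonic bases of Igf2 and 997 of its last 1000, where a 3-prime method reads, so reads there could not be assigned to either gene, and Gm49394 also had 0 UMIs. H19, the noncoding neighbour that is imprinted in the opposite sense, was measured in fibroblasts at 80.9, 55.7, 60.6 and 0 CPM.

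Igf1r (chromosome 7, 67952827-68233668, plus strand), the signalling receptor, was found in every class and was lowest in leukocytes. Cancer cells held 140 and 136 CPM (1502 and 1145 UMIs), mural cells 149, 118, 105 and 161, endothelial cells 116, 55.8, 79.8 and 102, fibroblasts 69.3, 59.3, 83.9 and 78.2 and leukocytes 33.0, 22.8, 16.3 and 12.6 CPM. Cancer cells exceeded fibroblasts by 1.32 ± 0.21 (edgeR adjusted p = 7.9e-06), endothelial cells by 1.10 ± 0.23 (edgeR adjusted p = 0.000385) and leukocytes by 2.40 ± 0.19 (edgeR adjusted p = 1.7e-10) on the log2 scale, higher calls that 25.3%, 23.8% and 31.1% of all genes also had. Cancer and mural cells did not differ beyond their spread (0.36 ± 0.24, edgeR adjusted p = 0.253), although they did with classes from clusters (0.56, edgeR adjusted p = 0.0375), and mural and endothelial cells of SAT did not either (0.46 ± 0.30, edgeR adjusted p = 0.348). Cancer cells held 59.8 and 59.7% of the Igf1r UMIs of the tumor, and cells of no class held a further 28.8 and 28.2%. Most Igf1r UMIs of the tumor thus lay in cancer cells and most Igf1 UMIs in fibroblasts. The cancer class also held most UMIs of all genes, 10706308 and 8412525 of the 17996284 and 15672787 in the tumor libraries. Its Igf1r share thus follows the RNA recovered in the class as well as the level, which was near that of mural cells. No protein was measured, and levels of different genes are not set against each other, since counts were not scaled by length.

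Igf2r (chromosome 17, 12682406-12769664, minus strand), the clearance receptor, had its lowest level per UMI, though not per cell, in cancer cells in the tumor. Cancer cells held 11.1 and 9.87 CPM, against 64.7 and 53.9 in fibroblasts, 74.7 and 64.9 in mural, 63.8 and 44.7 in endothelial cells and 21.4 and 15.2 in leukocytes. Both cancer values lay below those of every other class, but in tumor D-CAN the intervals of cancer cells (7.86 to 12.2) and leukocytes (9.01 to 24.0) overlapped. The cancer level differed from that of fibroblasts by -2.28 ± 0.28 and from that of leukocytes by -0.71 ± 0.29 on the log2 scale (edgeR adjusted p = 2.1e-07 and 0.0352, lower in 28.1 and 29.9% of all genes). Cancer cells held more RNA, with medians of 11124.5 and 17951.5 UMIs against 1637 and 2444.5 in leukocytes. Per cell the order was the other way, with an Igf2r UMI in 111 of 944 cancer cells and 19 of 559 leukocytes of tumor control. In SAT the levels were 81.5 and 48.0 CPM in fibroblasts, 87.1 and 167 in mural cells, 86.6 and 97.4 in endothelium and 14.3 and 14.2 in leukocytes. The 3 stromal and vascular classes did not differ beyond their spread in either tissue. No class of either receptor gene passed 2-fold between tumor and SAT under both treatments.

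**Figure D2:**
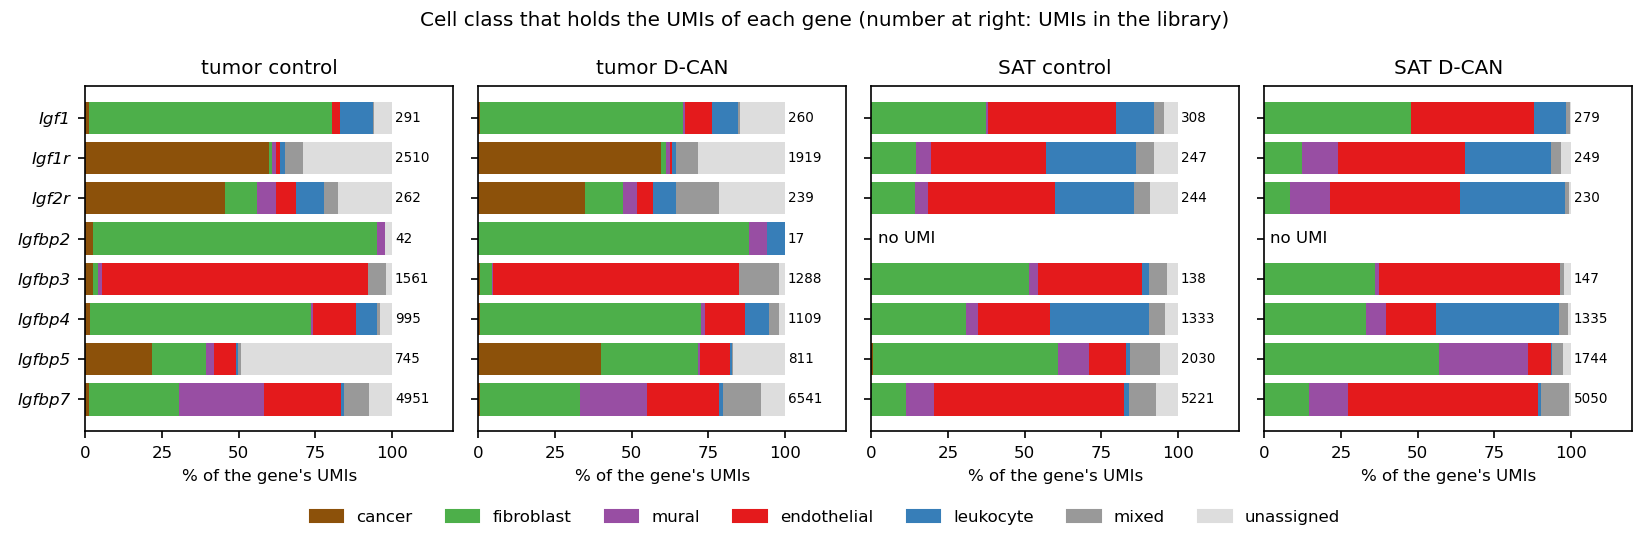
Share of the UMIs of each gene held by each class in each library, in percent, with the gene's number of UMIs at the right of the bar. Cancer cells held 59.8 and 59.7% of tumor Igf1r and fibroblasts 79.4 and 66.5% of tumor Igf1, while in SAT endothelial cells held 62.1 and 62.0% of Igfbp7.

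Igfbp3 (chromosome 11, 7206086-7213923, minus strand), the main IGF carrier of blood plasma, was the member with the largest rise in the tumor among the ratios called. Tumor endothelial cells held 5074 and 3852 CPM (1353 and 1035 UMIs) and SAT endothelial cells 40.3 and 86.5 CPM (47 and 87 UMIs), a 126-fold (94.1 to 172) difference in control and a 44.6-fold (35.8 to 56.1) difference in D-CAN, where 5% of genes in this class rose. Fibroblasts held 62.4 and 93.4 CPM in the tumor and 165 and 134 in SAT, mural cells 93.4, 11.8, 34.9 and 11.1, cancer cells 3.46 and 0.713, and leukocytes 0 to 4 UMIs. Endothelium exceeded fibroblasts by 5.57 ± 0.38 in the tumor (edgeR adjusted p = 1.1e-10), and fibroblasts exceeded endothelium by 1.44 ± 0.39 in SAT (edgeR adjusted p = 0.00638), a tissue difference of -7.01 on the log2 scale (edgeR adjusted p = 3.6e-08, lower in 2.26% of all genes). In SAT control fibroblasts 1 cell held 35 of 71 UMIs, and the lead of SAT fibroblasts was lost without the SAT control library (0.75, edgeR adjusted p = 0.065).

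The Igfbp3 UMIs were unevenly spread over cells. In tumor D-CAN endothelium 1 cell of 60 held 400 of 1035 UMIs, without which the level was 2363 CPM, and in SAT D-CAN endothelium 1 cell held 48 of 87, without which it was 38.8 CPM. With the top cell left out of every sum the tumor excess was 6.95 in control and 5.93 in D-CAN on the log2 scale. In cells thinned to 1000 UMIs, 66.2 and 36.0% of tumor endothelial cells held an Igfbp3 UMI, against 4.88 and 2.01% in SAT and at most 0.22% of leukocytes, the class taken as the level of stray RNA. Among the marker subsets, tip-like endothelial cells held 8093 and 6807 CPM (18 of 18 and 4 of 4 cells with a UMI, the D-CAN value resting on the 1 cell with 400 of its 427 UMIs) and capillary cells 3425 and 3543 CPM in the tumor, and SAT capillary cells 30.5 and 99.0. The same capillary label thus differed 112-fold (72.8 to 182) and 35.8-fold (27.3 to 47.6). Venous cells of the tumor held 0 UMIs in 4 cells and 2 in 7. Endothelial markers summed to 7699 and 8433 CPM in the tumor and 8192 and 9139 in SAT, and red cell genes in the same sums to 1290, 37.2, 1831 and 2549 CPM; their part in the result was not tested.

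**Figure D3:**
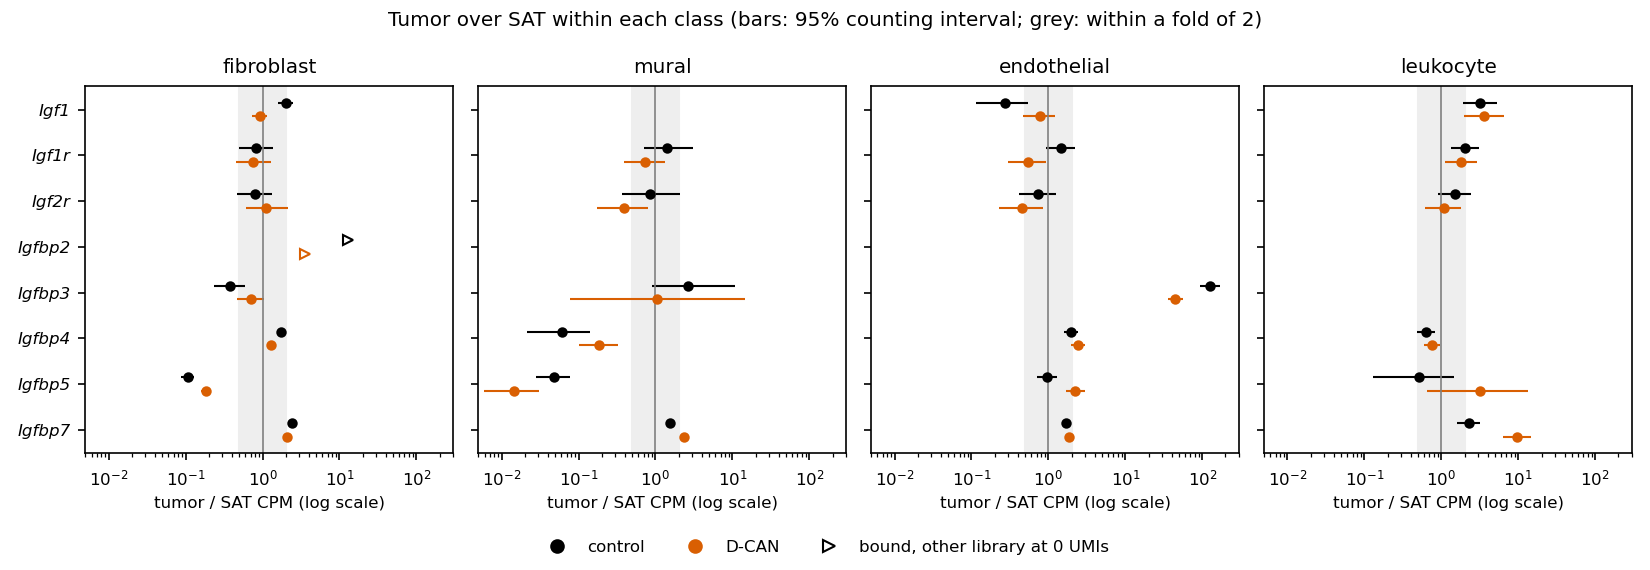
Tumor over SAT ratio of CPM (log axis) of each member in the 4 shared classes, control in black and D-CAN in orange, with 95% counting intervals, and the range within 2-fold in grey. Igfbp3 in endothelium lay at 126 and 44.6, and the Igfbp5 points of mural cells and fibroblasts lay left of the grey band under both treatments.

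The bases ahead of the transcription start are shown for Igfbp3, which had the largest rise in tumor endothelium, and for the neighbouring genes Igfbp2 and Igfbp5, which differed in opposite directions. Sequences are RefSeq's, build GRCm38.p6, 250 bases on the strand of the gene up to its RefSeq start, and all 9 members had an entry. Capitals mark TATAAA, the hypoxia response core ACGTG and the GC box GGGCGG on either strand, which are found in 12.4%, 16.6% and 32.7% of 32851 promoter windows of this length.
Igfbp3, chr11:7213924-7214173, minus strand: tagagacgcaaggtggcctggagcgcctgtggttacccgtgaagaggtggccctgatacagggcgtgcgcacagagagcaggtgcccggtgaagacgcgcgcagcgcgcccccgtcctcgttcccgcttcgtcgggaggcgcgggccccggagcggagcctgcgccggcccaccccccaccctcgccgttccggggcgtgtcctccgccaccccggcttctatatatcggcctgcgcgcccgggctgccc
Igfbp2, chr1:72824230-72824479, plus strand: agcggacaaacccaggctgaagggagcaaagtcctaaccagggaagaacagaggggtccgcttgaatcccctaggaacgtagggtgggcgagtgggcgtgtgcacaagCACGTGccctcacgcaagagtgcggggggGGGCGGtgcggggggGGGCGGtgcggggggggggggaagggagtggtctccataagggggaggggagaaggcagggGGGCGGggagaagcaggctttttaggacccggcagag
Igfbp5, chr1:72874866-72875115, minus strand: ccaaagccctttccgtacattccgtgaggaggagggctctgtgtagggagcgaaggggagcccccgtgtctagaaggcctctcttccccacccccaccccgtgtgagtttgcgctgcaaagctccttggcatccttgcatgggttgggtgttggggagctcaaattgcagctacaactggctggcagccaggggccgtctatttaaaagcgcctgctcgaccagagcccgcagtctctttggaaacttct
The windows had a GC content of 73.2%, 67.2% and 58.8%. That of Igfbp2 held 3 GC boxes and the hypoxia core in 2 overlapping matches. A second RefSeq window of Igfbp2, at another start and not shown, held none of the 3 motifs. None of the 3 exact strings was written in the windows of Igfbp3 and Igfbp5. Other forms of the motifs were not searched, and the Igfbp3 window holds the stretch gcgtg, which was not marked. The absence of a capital is thus no statement that a hypoxia core is lacking. A match is a stretch of letters and not a measured site.

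Igfbp2 and Igfbp5 lie tail to tail on chromosome 1 (72824503-72852474, plus strand, and 72857932-72874884, minus strand) with 5457 bases between them, and their tissue patterns were opposite. Igfbp2, a binding protein secreted by many fetal tissues, was a rare transcript of tumor fibroblasts. They held 90.2 (64.1 to 123) and 26.9 (15.1 to 44.4) CPM from 39 and 15 UMIs, which were 92.9 and 88.2% of all Igfbp2 UMIs of the tumor, and SAT held no Igfbp2 UMI in any cell. With each SAT sum set to a floor of 3 UMIs, the tumor fibroblast level was 12.9-fold higher in control and 3.56-fold higher in D-CAN (8% of genes in this class rose). These ratios leave out counting error and are not lower limits. In D-CAN the tumor interval began at 15.1 CPM and the SAT interval ended at 9.31 CPM. The D-CAN ratio fell to 0.73 on the log2 scale without the top cell. The lead of fibroblasts over mural cells was 3.57 ± 1.06 (edgeR adjusted p = 0.0473) and was not kept without the tumor control library (2.28, edgeR adjusted p = 0.838) or without the tumor D-CAN library (4.41, edgeR adjusted p = 0.273).

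Igfbp5, which binds to extracellular matrix and is a known product of mesenchymal cells, was high in the stroma of SAT and low in that of the tumor. Fibroblasts held 305 and 458 CPM in the tumor and 2858 and 2509 in SAT, a 9.37-fold (7.82 to 11.3) and 5.48-fold (4.77 to 6.31) higher SAT level, where 7.44% of genes were lower in tumor. Mural cells held 84.1 and 41.3 CPM in the tumor (18 and 7 UMIs) and 1769 and 2817 in SAT, 21.0-fold (13.0 to 36.2) and 68.3-fold (32.9 to 171) higher in SAT, where 11.7% of genes were lower in tumor. The tumor and SAT libraries did not overlap in either class. In SAT fibroblasts and mural cells did not differ beyond their spread (0.48 ± 0.29, edgeR adjusted p = 0.319). Without the SAT D-CAN library the difference was 0.99, but SAT then had 1 library and no spread of its own. In the SAT D-CAN library itself mural cells held more than fibroblasts. Fibroblasts and mural cells of SAT both exceeded endothelium, by 4.14 and 3.66 (edgeR adjusted p = 5.1e-10 and 2.6e-08, higher in 16.5 and 8.31% of all genes).

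Of the 4 Igfbp5 class differences that changed between the tissues, 3 involved mural cells. Tumor minus SAT, mural over endothelial differed by -5.44 on the log2 scale (edgeR adjusted p = 7.2e-06, lower in 0.754% of all genes), fibroblast over mural by 2.12 (edgeR adjusted p = 0.0293, higher in 2.06%) and mural over leukocyte by -4.52 (edgeR adjusted p = 0.018, lower in 6.06%). The fibroblast over endothelial difference, -3.32 (edgeR adjusted p = 8.2e-05), depended on single cells. In tumor endothelium, at 203 and 294 CPM, 1 cell held 38 of 54 UMIs and another 71 of 79, and without them it held 60.0 and 29.8 CPM. With the top cell left out of every sum, of all classes and both tissues, the tissue difference was -1.75 (edgeR adjusted p = 0.203). Tumor fibroblasts then exceeded endothelium by 2.85 (edgeR adjusted p = 0.000165), against 0.81 ± 0.35 (edgeR adjusted p = 0.106) with all cells. A fit without the 2 endothelial cells alone was not run. The latter difference passed when the SAT control or the SAT D-CAN library was left out (0.82 each, edgeR adjusted p = 9.4e-05 and 8.4e-05). Leaving out either tumor library ended the calls of fibroblast over mural (edgeR adjusted p = 0.113 and 0.477) and mural over leukocyte (edgeR adjusted p = 0.0895 and 0.117).

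Within SAT fibroblasts Igfbp5 was highest in progenitor-marked cells, at 3824 and 4238 CPM, and lower in committed-marked cells, at 1505 and 328 CPM, of which 87 of the 117 control UMIs came from 1 cell. In the tumor the progenitor-marked cells held 330 and 943 CPM and the committed-marked cells 216 and 285. The SAT progenitor level was 11.6-fold (7.79 to 18.0) the tumor level in control and 4.50-fold (3.65 to 5.60) in D-CAN. The summed progenitor markers were at 643 and 627 CPM in tumor fibroblasts and at 4239 and 3859 in SAT fibroblasts, all 6 being seen in each, and the part of this makeup in the class difference was not tested. Tumor cancer cells held 162 and 325 Igfbp5 UMIs (15.1 and 38.6 CPM), which lay in 42 of 944 and 31 of 450 cells, and amounted to 21.7 and 40.1% of the UMIs of the gene. Cells of no class held a further 49.4 and 16.8%, so the share of all cancer cells is not known. The summed fibroblast markers of the cancer class were at 11.2 and 4.28 CPM.

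**Figure D4:**
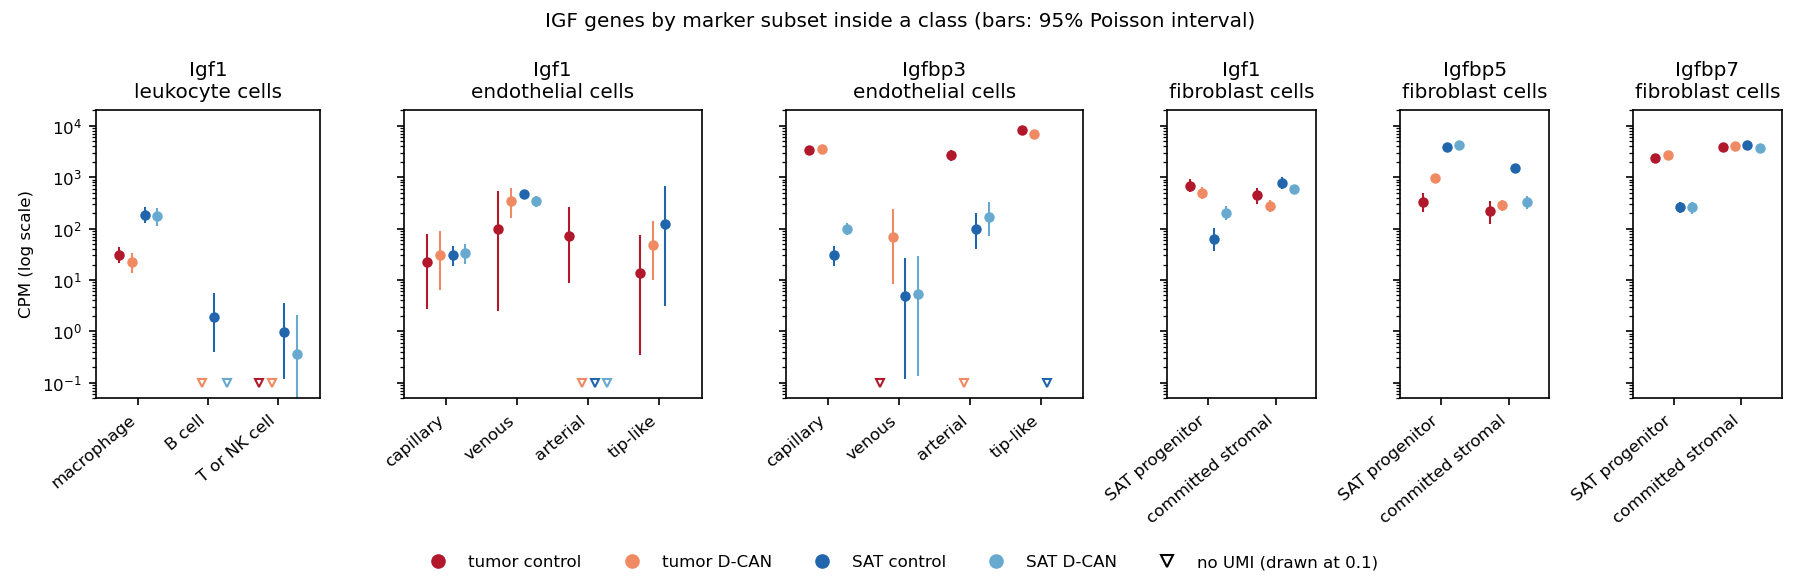
CPM (log axis) of Igf1, Igfbp3, Igfbp5 and Igfbp7 in marker subsets inside a class, 1 point per library with its 95% Poisson interval, and open triangles at 0.1 for no UMI. SAT macrophages held 183 and 173 CPM of Igf1 against 31.3 and 22.0 in the tumor, and SAT progenitor-marked fibroblasts held 3824 and 4238 CPM of Igfbp5 but 262 and 258 of Igfbp7.

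Igfbp4 (chromosome 11, 99041244-99054392, plus strand), which withholds IGFs from their receptor until it is cleaved by pappalysin, had its highest class level in fibroblasts in both tissues. Fibroblasts held 1664 (1545 to 1791), 1439, 962 and 1118 CPM and no other class came above 532. Endothelial cells held 518, 532, 265 and 220 CPM, mural cells 28.0, 88.4, 462 and 472 and leukocytes 62.5, 72.6, 98.2 and 96.2. The lead of fibroblasts was 1.76 ± 0.21 over endothelium in the tumor (edgeR adjusted p = 7.1e-07) and 1.45 ± 0.23 over mural cells in SAT (edgeR adjusted p = 4.2e-05). It was the mural level that differed most between the tissues, with SAT 16.5-fold (7.09 to 46.9) and 5.34-fold (3.06 to 9.96) above the tumor from 53 and 85 against 6 and 15 UMIs. Mural cells differed from endothelium by -3.15 in the tumor and by 0.80 in SAT (edgeR adjusted p = 2.4e-07, lower in 6.95% of all genes, and 0.0176), and the difference between these was -3.95 (edgeR adjusted p = 4.6e-06). Fibroblast over mural was 3.46 and fibroblast over leukocyte 1.39 higher in the tumor (edgeR adjusted p = 8.0e-06 and 0.00141, higher in 9.81% of all genes for the latter). Mural over leukocyte differed by -2.07 (edgeR adjusted p = 0.00173), a call lost without the tumor control library (edgeR adjusted p = 0.0905), and endothelial over leukocyte was 1.88 higher (edgeR adjusted p = 8.9e-05).

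Leukocytes were a source of Igfbp4 in SAT through their number, with the lowest level of the SAT classes. Leukocytes held 32.6 and 40.1% of the Igfbp4 UMIs of SAT and fibroblasts 31.0 and 33.2%, while in the tumor leukocytes held 7.04 and 7.75% and fibroblasts 72.4 and 72.2%. These shares follow the cells recovered as well as the levels. SAT leukocytes held 4417376 and 5569952 of the 6667064 and 7444729 UMIs of all genes in the SAT libraries. T or NK cells of SAT held 179 and 177 CPM, with a UMI in 165 of 610 and 208 of 663 cells, and SAT B cells 10.7 and 1.05 CPM. The tumor had 6 and 13 T or NK cells with no Igfbp4 UMI among them, too few to set a level. Macrophages held 69.9 and 84.1 CPM in the tumor and 161 and 173 in SAT. In SAT endothelium Igfbp4 was high in the venous (582 and 703 CPM) and arterial (757 and 778 CPM) subsets and low in the capillary subset (116 and 22.0 CPM), and among SAT fibroblasts it was 1278 and 1680 CPM in progenitor-marked and 206 and 491 CPM in committed-marked cells.

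Igfbp7 (chromosome 5, 77349240-77408041, minus strand) was shared by all stromal and vascular classes. Mural cells held 6402, 8448, 4131 and 3617 CPM, endothelial cells 4688, 5727, 2779 and 3113 and fibroblasts 3350, 3849, 1372 and 1848, while cancer cells held 5.42 and 3.09 and leukocytes 48.2, 65.0, 21.3 and 6.82. Mural cells held more than endothelial cells in both tumor libraries. With the spread fitted over both tissues, this difference did not pass in the tumor (0.61 ± 0.25, edgeR adjusted p = 0.118) or in SAT (0.24 ± 0.25, edgeR adjusted p = 0.607). Fibroblasts differed from mural cells by -0.94 in the tumor and -0.96 in SAT (edgeR adjusted p = 0.0192 and 0.0091, lower in 2.88 and 7.92% of all genes). None of its 6 class pairs differed between the tissues past the threshold (smallest edgeR adjusted p = 0.102, for endothelial over leukocyte, the 1 pair with an unadjusted p under 0.05). The tumor mural lead passed without SAT control or without SAT D-CAN (0.60 and 0.55, edgeR adjusted p = 1.5e-05 and 0.000101). Fibroblasts of the tumor held 2.44-fold (2.22 to 2.69) and 2.08-fold (1.91 to 2.27) the SAT level. Among the subsets, SAT progenitor-marked fibroblasts held 262 and 258 CPM and those of the tumor 2313 and 2741, while committed-marked cells held 4284 and 3617 in SAT and 3949 and 4110 in the tumor. The leukocyte excess of the tumor, 2.27-fold and 9.53-fold, rested in part on single cells, with 67 of the 77 UMIs of the D-CAN library and 21 of the 54 of control in 1 cell each, and without the top cells it was 0.76 and 0.60 on the log2 scale.

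In all, 8 of 27 pairs of member and class passed 2-fold between tumor and SAT under both treatments, 5 higher and 3 lower in the tumor. Of all genes, 8% were higher and 7.44% lower in fibroblasts, 11.7% lower in mural cells, 5% higher in endothelium and 17.8% higher in leukocytes by the same rule. The median log2 ratio of the members was 0.26 and 0.02 in fibroblasts, 0.15 and -0.91 in mural cells, 0.54 and 0.88 in endothelium and 0.80 and 1.25 in leukocytes (control and D-CAN), where that of all genes tested was 0.05 and 0.10, 0.07 and -0.07, -0.06 and -0.01, and 0.12 and 0.15. Igf1 in fibroblasts was not among the pairs called, with ratios of 1.99 and 0.919, nor was Igfbp3 in fibroblasts, at 0.377 and 0.698. Igf1 in endothelium was at 0.271 and 0.769.

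Between D-CAN and control, 11 of 56 pairs of member and class passed 2-fold, 4 upward and 7 downward, and 4 of 44 did so at 50 or more UMIs. In the classes and directions with a called member, 0.938 to 4.3% of all genes passed 2-fold. Each of these shares covers 1 class and 1 direction, whereas the 11 of 56 adds both directions over all classes, so the 2 are not alike. The share of all genes at 50 UMIs is not given here, and the counts were not tested against these shares. In tumor fibroblasts, Igfbp2 was at 0.299-fold (0.153 to 0.554) its control level (2.63% of genes in this class fell past 2-fold), while Igf1 was at 0.582-fold (0.475 to 0.712), within the limit. In tumor endothelium Igf1 was at 2.85-fold (1.23 to 7.38, 23 against 8 UMIs; 4.04% of genes rose) and Igf1r at 0.480-fold (0.241 to 0.917; 3.66% fell). Igfbp3 there was at 0.759-fold (0.699 to 0.824). In the cancer class Igfbp5 was at 2.55-fold (325 against 162 UMIs, where 0.975% of genes rose). This value turned to -0.25 on the log2 scale when the class needed 4 markers, and to 0.03 when it was made of whole clusters. Igfbp3 in the cancer class was at 0.206-fold (0.071 to 0.493, 6 against 37 UMIs, where 0.938% fell). Its control and D-CAN levels, 3.46 and 0.713 CPM, were near those of tumor leukocytes, 3.57 and 0.845 CPM (4 and 1 UMIs). Leukocytes were taken above as the level of stray RNA, and the part of stray RNA in this ratio was not tested.

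In tumor mural cells, of which there were 57 and 27, Igfbp3 was at 0.126-fold (2 against 20 UMIs, 16 of the 20 in 1 cell; 4.3% of genes fell), Igfbp4 at 3.16-fold (15 against 6 UMIs; 3.79% rose) and Igfbp5 at 0.491-fold (7 against 18 UMIs). In SAT endothelium Igfbp3 was at 2.15-fold (1.49 to 3.13; 2.04% rose), and at 0.11 on the log2 scale without the top cell. In SAT leukocytes Igfbp5 was at 0.153-fold (0.052 to 0.373) and Igfbp7 at 0.321-fold (0.214 to 0.472), where 2.38% of genes fell, and the fibroblast markers in the same sums went from 27.8 to 14.9 CPM; their part was not tested. No member passed 2-fold in fibroblasts or mural cells of SAT. With 1 library on each side, these ratios compare libraries and not treatments.

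Other genes of the IGF pathway were taken from a fixed list of 37, of which 27 were tested. In the tumor 11 were higher in 1 class than in the next (31.4% of all genes, and 3.57% with fibroblasts highest): 6 in fibroblasts, 2 in cancer cells, 2 in endothelium, 1 in mural cells and 0 in leukocytes (edgeR, 2 of the 27 had their highest level in leukocytes). In SAT 14 were (36% of all genes, and 7.52% with fibroblasts highest): 8 in fibroblasts, 4 in mural cells, 2 in endothelium and 0 in leukocytes. Igfbp6, a binding protein with a preference for IGF2, was higher in fibroblasts than in the next class in both tissues (4.67 and 7.58 on the log2 scale, edgeR adjusted p = 1.5e-05 and 5.1e-13), at 252, 244, 1896 and 2305 CPM, so that, as for Igfbp5, the SAT libraries lay above those of the tumor. Htra3, a serine protease, was also highest in fibroblasts (2.69 and 6.36, edgeR adjusted p = 0.000336 and 1.3e-12), at 169, 183, 545 and 371 CPM. Stc1, whose product stanniocalcin inhibits pappalysins, was highest in endothelium (3.65 and 3.52, edgeR adjusted p = 3.8e-05 and 0.0277), at 326, 156, 28.3 and 41.7 CPM, the tumor libraries being the higher ones as for Igfbp3. Pappa, the protease of Igfbp4, had 31, 24, 1 and 3 UMIs in fibroblasts. Insr, the insulin receptor, was highest in endothelium of SAT (0.96, edgeR adjusted p = 0.0369). The adaptor Shc1 and the RNA binding protein Igf2bp3 were highest in cancer cells (1.08 and 2.60, edgeR adjusted p = 0.00786 and 4.9e-06).

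The genes most like each member over the 18 sums were found by Pearson correlation of log2(CPM + 1) among 11405 genes with at least 100 UMIs, as a description, since the sums share libraries and classes. They were Ly6a (r = 0.909) and Cpne8 (0.903) for Igf1, Clstn1 (0.917) and Dag1 (0.906) for Igf1r, Jam3 (0.958) and Marveld1 (0.956) for Igf2r and Vwa1 (0.922) and Fam171a1 (0.894) for Igfbp3. For Igfbp4 they were Tgfbr2 (0.938) and Fgfr1 (0.898), for Igfbp5 Lamb2 (0.934) and Trim2 (0.926), and for Igfbp7 Phldb2 (0.973) and Wwtr1 (0.968). Ly6a encodes Sca-1, a surface protein of mouse adipose progenitors and endothelium. Igf2 and Igfbp2 had too few UMIs to be ranked.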

How the data were processed

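Single-cell 3-prime libraries (10x, v3 kit) were made from tumor and SAT suspensions after removal of dead and red blood cells, 1 library per tissue and treatment. The deposited matrices hold raw UMI counts per gene and cell as the authors made them. The submitters' processing notes name Cell Ranger 3.1.0, STAR 2.6 and mm10, and the matrix headers give 3.1.0 except for SAT D-CAN, with 3.0.2, a difference that cannot be told apart from that library. No doublet caller was run; cells with markers of several classes were left out.

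Counts were summed per class and library with Python 3.11.15 and tested with edgeR 4.0.16 (quasi-likelihood, TMM, filterByExpr, library block, class nested in tissue, 7 residual degrees of freedom, 22 contrasts, Benjamini-Hochberg at 5%). On simulated counts of tumor endothelial over leukocyte cells (7197 genes) 193 of 200 4-fold changes were recovered and 13 of 6997 unchanged genes called. The simulation used a pooled mean per gene and a common dispersion, with no other class, tissue or treatment differences. Only genes above a minimum mean count were changed, so its rates do not carry over to members with few UMIs. Shares of UMIs carry Clopper-Pearson intervals. Where a sum was 0, a floor of 3 UMIs stood in for it, and the ratio then leaves out the counting error of the other sum. Alternatives were DESeq2 1.42.0, other scalings, filters, gates and cell sets, classes from Seurat 5.3.0 clusters, and each library or the top cell left out. Positions are from GENCODE (GRCm38) and promoters from RefSeq.

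Members and lists were chosen with earlier results of these data known. Genes named are the 9 members, some of the pathway genes called or listed with their counts, the 2 genes most like each member and the class markers. Other called pathway genes were counted without their values being given, such as Nov and Wisp2, each higher in fibroblasts than in the next class in both tissues. H19, Pappa and the values of Igfbp6, Htra3 and Stc1 outside the tested contrasts were singled out after their values were seen. Nothing states that libraries are pools or single animals, and the control and D-CAN libraries of a tissue served as its replicates. With the library as a block, p-values measure how far class differences vary between these libraries. A treatment difference particular to a class adds to that spread, which was estimated over both tissues in the same fit.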

Additional observations from a re-analysis of the deposited data

Results flagged for a closer look

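For 4 members the difference between classes itself differed between tumor and SAT by the edgeR interaction test (2 libraries per tissue), given here as tumor minus SAT on the log2 scale. For Igf1, endothelial over leukocyte differed by -2.45. For Igfbp3, fibroblast over endothelial differed by -7.01. For Igfbp4, endothelial over leukocyte differed by 1.88, fibroblast over leukocyte by 1.39, fibroblast over mural by 3.46, mural over endothelial by -3.95 and mural over leukocyte by -2.07. For Igfbp5, fibroblast over endothelial differed by -3.32, fibroblast over mural by 2.12, mural over endothelial by -5.44 and mural over leukocyte by -4.52. The adjusted p-values ranged from 3.6e-08 to 0.0293.

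Part of the Igfbp5 UMIs lay in cells that the gate left without a class, 368 in tumor control and 136 in tumor D-CAN. They were 49.4 and 16.8% of the UMIs of the gene. These cells numbered 948 and 458. The gate left out most of tumor cluster 2, where 33 of 486 cells had a class, 32 of them cancer. Ungated cells also lay in a leukocyte cluster (121 of 220 gated) and the mural cluster (100 of 160 gated). Which class the cells with these Igfbp5 UMIs belong to was not tested. With 1 library per tissue and treatment, no group was large enough to look for outlying libraries.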

How the results depend on the processing

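Classes were compared within libraries, but libraries could not be paired by animal because the labels carry no replicate numbers. Counts of called members stayed within 1.5 times their value under every alternative run, except that the pairs past the D-CAN over control limit numbered 20 of 56 at a fold of 1.5 and 4 of 44 at 50 UMIs. Leaving out each library in turn gave 3 to 6 members past the highest-over-next test in the tumor, 2 to 4 in SAT and 3 to 6 between tissues, where the lone library of a tissue was assumed to vary like the others. The reversed values, all on the log2 scale, were Igf2r mural over fibroblast in tumor (-0.036 for cells with 500 genes and -0.0821 without the top cell), Igf2r mural over endothelial in SAT (-0.16 to 0.60 when each library was left out, the former without SAT D-CAN), and D-CAN over control of Igfbp5 in cancer cells (-0.25 with 4 markers), of Igfbp3 and Igfbp4 in tumor mural cells (1.42 and -0.13 with classes from clusters) and of Igfbp5 in tumor mural cells (0.37 without the deepest 5% of cells). The lead of Igfbp2 in tumor fibroblasts was lost under 8 alternatives (edgeR or DESeq2 adjusted p 0.0518 to 0.910), that of Igfbp3 in SAT fibroblasts under 4 (0.0556 to 0.326). By DESeq2 the tissue difference of Igf1 had an adjusted p of 0.0659, and of Igfbp5 fibroblast over mural 0.203. Tumor over SAT values of the called pairs did not change sign in 144 alternative values. These pairs had been chosen for passing 2-fold in the same direction under both treatments, and uncalled pairs were not included. Without the filter on low counts, Igfbp5 fibroblast over endothelial and Igfbp7 mural over endothelial in the tumor and Igfbp5 fibroblast over mural in SAT passed (edgeR adjusted p 0.000608, 0.000771 and 0.0251). The cause of these changes was not tested. Leaving out the top cell was chosen after seeing the data. Depth limits Igfbp2, Igf2 and the mural values, which rest on few UMIs.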
